A study of Mus musculus with 12 samples.

Results

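Tubuloids that received only vehicle were described here across all genes of the deposited table, with no comparison to the treated cultures. They were chosen by the treatment label alone, which gave 4 of the 12 RNA-seq libraries of the series. Tubuloids are epithelial structures grown from dissociated kidney in a gel of basement membrane proteins. These came from the renal cortex of 4 wildtype mice, were grown in Matrigel, and were taken after 12 h with vehicle. The other libraries of the series, which received myoglobin with or without dexamethasone, were not used. All 4 vehicle libraries carry the same labels: mouse, wildtype genotype, primary tubuloids of renal tubular epithelial cells. The age, sex and strain of the animals and the solvent used as vehicle are not given in the sources used here. The labels do not tie a library to a mouse, so the standard deviations below measure the spread between these libraries, which may be technical.

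The renal tubule is a chain of segments that work on the filtrate in turn. The proximal tubule recovers glucose, amino acids, phosphate and filtered protein, the thick ascending limb and distal convoluted tubule recover salt, and the connecting tubule and collecting duct adjust sodium, water and acid under hormonal control. The collecting duct grows from the ureteric bud of the embryo, whereas the other segments arise from nephron progenitors. When mature tubule cells are injured or placed in culture, they commonly lose transporters and turn on genes such as Spp1, Clu, Lcn2 and Sox9.

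Each value in the table is a whole number of normalised reads per gene, with no correction for gene length. A gene is named as detected below when its value was at least 10 in each of the 4 libraries, and as not detected when it was under 10 in each; the remaining genes are borderline. Levels of different genes are compared only per exonic kilobase, that is, after the value was divided by the length of all annotated exons of the gene. The summed values of the libraries lay between 5252534 and 5294738, and the library divisors read back from the low values put the reads assigned to genes at 5507291 to 5866570 per library. Of 20819 genes in the table, 13731 (66.0%) were detected, 5813 were not detected and 1275 were borderline. Protein-coding genes made up 98.3% of the summed values, and 12659 of 15422 (82.1%) were detected, against 1072 of 5397 (19.9%) other genes. The median level was 28.5 normalised reads per exonic kilobase over all genes and 63.4 over detected genes; these are the background for the levels that follow.

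The highest levels per exonic kilobase belonged to genes of translation, protein folding, epithelial structure, secretion and surface defence. Eef2, the elongation factor that moves the ribosome along the messenger RNA, led with 661 ± 8.63 normalised reads per exonic kilobase (SD, n = 4). It was followed by Sprr1a, a small proline-rich protein of the cornified envelope that stressed epithelia also make, at 638 ± 31.8, and by Ifitm3, an antiviral membrane protein, at 619 ± 27.5. Also near the top were the simple-epithelium keratin Krt18 at 610 ± 18.5, the secreted phosphoprotein Spp1 (osteopontin) at 607 ± 2.29 and the light chain of class I histocompatibility molecules B2m at 606 ± 27.1. Others among the 15 highest were the chaperone Hsp90ab1 at 591, the complement protein C3 at 588, the lysosomal activator precursor Psap at 567, E-cadherin Cdh1 at 528, Igfbp7 at 527.5 and clusterin Clu at 518. The microRNA locus Mir5125, at 595, is only 79 bases long and overlaps Srrm2, the gene with the third highest value, so its reads and those of its host cannot be told apart.

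Without the length correction another set of genes led. The highest values were those of Hspg2 (perlecan) at 4653 ± 112 and the laminin chain Lama5 at 4552 ± 77.0, followed by Srrm2, Myh9, Xist, Flna, Prrc2a, C3, Agrn and Fasn. Perlecan was at 4808, 4621, 4643 and 4540 in libraries 1 to 4, and the fatty acid synthase Fasn was at 2740, 2883, 2950 and 3168. The 50 genes highest by value had a median exonic length of 10760 bases, against 2270.5 bases for the 50 highest per exonic kilobase, and only 10% of the second set stood in the first. Within the table no single gene dominated. The 10 highest genes held 0.688% of all values, the 100 highest 4.57% and the 1000 highest 26.0%. It took 2623 genes to reach 50% of the total. No gene of the mitochondrial genome is in the table, so these shares leave such transcripts out. Whether the narrow range of read density described next lowers the shares of the highest genes was not tested.

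The density of reads along the transcripts had a narrow upper range. The highest value per exonic base was 0.661, and only 7 genes exceeded 0.6 and 249 exceeded 0.3, with genes of very different length and function packed between them. Ferritin heavy chain Fth1 stood at 208 normalised reads per exonic kilobase, Gapdh at 88.8 and the ribosomal proteins at a median of 129, below genes such as Prom1 (336) and Ret (389). Fth1, Gapdh and the ribosomal proteins have near-identical processed copies in the genome, so reads that map to several places may be missing from their values. Whether duplicate reads were removed is not stated in the sources used here, and its part in this narrow range was not tested. The length used also matters: with the longest annotated transcript in place of all exons, Clu was at 984 in place of 518 normalised reads per kilobase, Lcn2 at 679 in place of 356, Pax8 at 211 in place of 118, Slc12a3 at 242 in place of 93.9, Vcam1 at 151 in place of 69.6, Ptprc at 77.9 in place of 24.4 and Fkbp5 at 58.9 in place of 24. The order of genes above 0.3 per base should therefore not be read as an order of transcript abundance. Below 0.3 per base the levels also depend on the length used, as those of Pax8, Slc12a3, Vcam1, Ptprc and Fkbp5 show. Rankings per exonic kilobase in the rest of the text carry this limit.

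**Figure D1:**
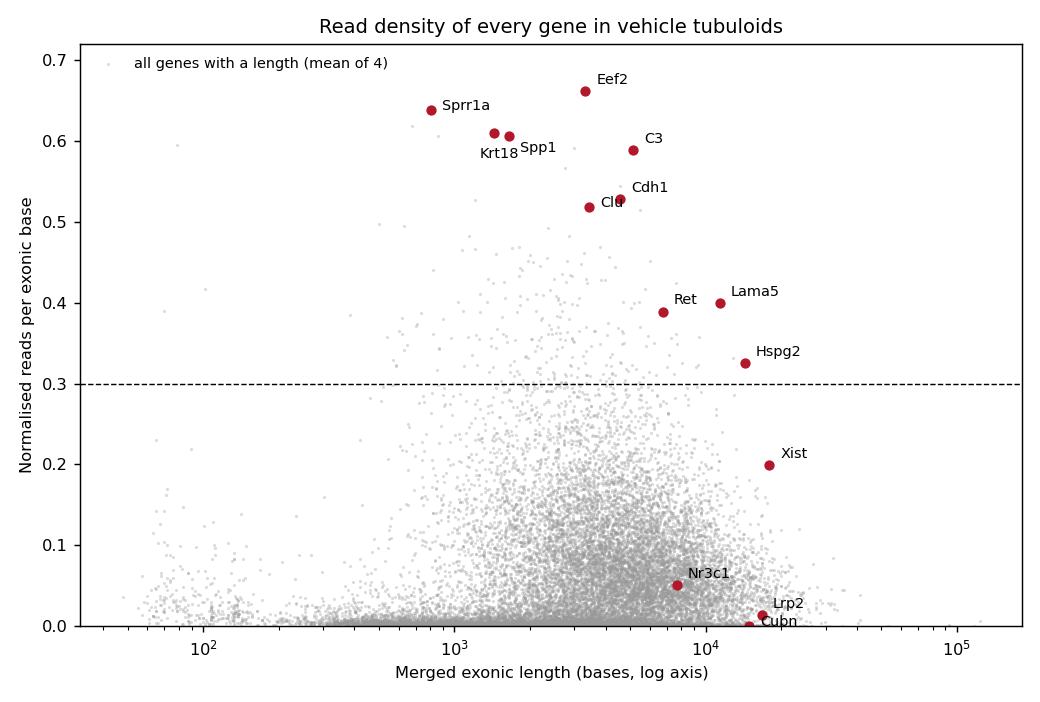
Read density of every gene, as the mean normalised value of 4 vehicle libraries per exonic base (linear axis), against merged exonic length in bases (log axis); grey points are genes, red points are named genes, and the dashed line is at 0.3. No gene exceeds 0.661 per base, 249 genes lie above the line, and Eef2, Sprr1a, Krt18 and Spp1 lie close together at the top.

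Promoter sequence differed along with detection, and the promoters at both ends of that range among the highest genes are shown here because they bear on that pattern. RefSeq start-site windows (GRCm38.p6) could be matched to 12111 of 15418 protein-coding genes. In the 250 bases before the start, the dinucleotide CG occurred a median of 14 times over all 12111 matched genes. The median was 16 in 10101 detected genes, 7 in 507 borderline genes and 5 in 1503 genes that were not detected. The letters TATAAA on the coding strand, 50 to 11 bases before the start, occurred in 1.44% of detected and 5.32% of not detected genes. The share was 2.01% over all matched genes and 2.40% over all 32851 windows of the RefSeq table. The TATAAA share did not follow the level among detected genes. It was 1.88% both in the 2020 genes of highest level and in the 2020 of lowest level, although 7 of the 100 highest matched genes per exonic kilobase held it. CG counts did differ with level, with a median of 17 in the 2020 highest genes and 12 in the 2020 lowest. Of the matched genes among the 20 highest per exonic kilobase, the pair with the fewest CG (Sprr1a and C3) and the pair with the most (P4hb, a protein disulfide isomerase, and Igfbp7) read as follows, 5′ to 3′ toward the start site, with each CG, and TATAAA in that position, in capitals. These matches describe letters and not binding sites.
Sprr1a, GRCm38.p6 chr3:92485882-92486131, minus strand: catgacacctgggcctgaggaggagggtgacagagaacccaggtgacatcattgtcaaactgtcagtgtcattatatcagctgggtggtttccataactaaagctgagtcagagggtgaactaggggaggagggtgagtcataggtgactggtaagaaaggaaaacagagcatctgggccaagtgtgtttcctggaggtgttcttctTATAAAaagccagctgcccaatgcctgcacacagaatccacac
C3, GRCm38.p6 chr17:57228137-57228386, minus strand: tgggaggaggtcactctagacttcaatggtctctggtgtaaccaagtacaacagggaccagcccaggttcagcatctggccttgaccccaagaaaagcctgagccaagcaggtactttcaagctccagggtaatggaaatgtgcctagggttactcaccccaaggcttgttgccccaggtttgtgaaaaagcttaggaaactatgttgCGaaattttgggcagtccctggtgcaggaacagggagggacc
P4hb, GRCm38.p6 chr11:120573254-120573503, minus strand: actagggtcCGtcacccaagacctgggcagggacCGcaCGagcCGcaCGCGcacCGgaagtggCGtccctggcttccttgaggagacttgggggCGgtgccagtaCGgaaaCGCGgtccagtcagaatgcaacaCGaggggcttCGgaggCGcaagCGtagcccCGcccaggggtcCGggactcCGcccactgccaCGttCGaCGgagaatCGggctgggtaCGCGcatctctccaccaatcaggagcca
Igfbp7, GRCm38.p6 chr5:77408046-77408295, minus strand: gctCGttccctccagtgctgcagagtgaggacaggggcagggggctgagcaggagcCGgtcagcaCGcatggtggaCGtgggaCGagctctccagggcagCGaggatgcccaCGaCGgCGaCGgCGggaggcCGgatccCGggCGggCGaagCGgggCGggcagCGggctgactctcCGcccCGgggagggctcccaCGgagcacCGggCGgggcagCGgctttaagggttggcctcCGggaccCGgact
Sprr1a held 0 CG and the TATAAA letters, C3 held 1 CG, P4hb held 25 and Igfbp7 held 26. All 4 genes lay between 482 and 638 normalised reads per exonic kilobase, so promoters at opposite ends of that range stood before genes of high level. Eef2, the highest gene, held 23.

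The label of renal tubular epithelium held against its markers. All 18 genes of a list of tubular and general epithelial markers were detected, against 82.1% of all protein-coding genes. Their median was 313 normalised reads per exonic kilobase. The adhesion molecule Epcam was at 976, 947, 1010 and 973 in libraries 1 to 4. The kidney-specific cadherin Cdh16 was at 1898, 1762, 1782 and 1675. Pax8, a transcription factor of the whole renal epithelium, was at 748, 725, 710 and 674. All 3 genes differed little between libraries, with coefficients of variation of 2.65%, 5.16% and 4.35%. The transcription factors Pax2, Elf3, Ehf and Grhl2 were at 270, 379, 271 and 111 per exonic kilobase. In bulk RNA, fewer cells of a type and less RNA per cell cannot be told apart, which holds for every marker level below. The 82.1% of all protein-coding genes is the background for every count of detected markers below.

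Each listed gene of the ureteric bud and collecting duct, the principal cell and the connecting tubule was detected, at unequal levels. Among all protein-coding genes 82.1% were detected, so full detection of these short lists is not read as a result by itself. All 9 ureteric bud and collecting duct genes were detected, with a median of 175 per exonic kilobase. Ret, the receptor tyrosine kinase through which GDNF drives ureteric bud branching, was at 2893, 2518, 2649 and 2460 in libraries 1 to 4 (389 per exonic kilobase), highest in library 1 and lowest in library 4. Hoxb7, whose promoter is widely used to mark the ureteric bud lineage, was at 382 per exonic kilobase, the bud transcription factor Emx2 at 273 and Tfcp2l1 at 175. All 11 principal cell genes were detected, but their median of 52.8 lay below that of detected genes. The epithelial sodium channel subunits Scnn1b and Scnn1g were at 363 and 164 per exonic kilobase and Scnn1a at 31.5, the transcription factor Gata3 at 264, and Hsd11b2, which inactivates glucocorticoid in these cells, at 98.6. The water channel Aqp2, the defining product of mature principal cells, was low, at 35, 41, 28 and 16, or 21.1 per exonic kilobase. The vasopressin receptor Avpr2 was at 86, 87, 86 and 58. All 5 connecting tubule genes were detected (median 99.1), led by the calcium buffer Calb1 at 1496, 1301, 1394 and 1302, while the apical calcium channel Trpv5 had 46, 41, 30 and 28.

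Markers of the distal convoluted tubule and thick ascending limb were present at unequal levels. Among 5 distal convoluted tubule genes 4 were detected, with a median of 70.3, including the magnesium channel Trpm6 at 130 per exonic kilobase. The thiazide-sensitive cotransporter Slc12a3 was at 1163, 1115, 1130 and 767, so library 4 stood well below libraries 1 to 3, which differed little. In the thick ascending limb list 7 of 9 genes were detected, with a median of 35. The potassium channel Kcnj1, shared with the collecting duct, was at 153 per exonic kilobase and the claudin Cldn10 at 136. Uromodulin, the most abundant protein of normal urine and the defining product of this segment, was at 86, 100, 87 and 73 for Umod, or 31.3 per exonic kilobase. Slc12a1 is not in the table used here and was not analysed. Of 4 macula densa genes 2 were detected, and Nos1 was at 2, 3, 0 and 1.

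Intercalated cell markers were sparse. Of 11 genes 5 were detected, with a median of 2.64 per exonic kilobase. Foxi1, the transcription factor that specifies these acid-base cells, was at 39, 53, 45 and 32, and pendrin Slc26a4 was at 111, 113, 56 and 74, lower in libraries 3 and 4 than in libraries 1 and 2. The proton pump subunit Atp6v0d2 was at 112 per exonic kilobase, although Atp6v1g3 and Rhbg did not reach 10 in any library.

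Genes of the mature proximal tubule, the main segment of the cortex from which the cultures were grown, were mostly low. In the list for all proximal segments 11 of 22 genes were detected, and the median was 4.15 per exonic kilobase. Megalin, the large scavenger receptor of the brush border, was at 264, 234, 216 and 218 for Lrp2, but its exons span so many bases that this is 14.0 per exonic kilobase. Its partner cubilin was at 1, 2, 3 and 5 for Cubn. Hnf4a, the transcription factor required for proximal maturation, was at 11, 12, 11 and 14. Anpep, an aminopeptidase of the brush border, was the one high member, at 1986, 1886, 1837 and 1834 or 456 per exonic kilobase; the next were Ggt1 at 62.5 and Mme at 36.2. Of 6 genes of the early segments S1 and S2 only the bicarbonate cotransporter Slc4a4 and Gatm were detected, and the glucose carrier Slc5a2 was at 5, 5, 6 and 3 and the phosphate carrier Slc34a1 at 1, 3, 3 and 0. The late segment S3 list differed: 6 of 7 genes were detected with a median of 97.3, led by the hydroxylase Cyp7b1 (150), Atp11a (138), Napsa (111) and the glucose carrier Slc5a1 (97.3). Atp11a is expressed in many tissues. The other members were lower: Slc27a2 was at 50.7 and Slc5a8 at 24.4 per exonic kilobase, and Slc6a18 was borderline at 14, 6, 9 and 5. Of the 10 genes listed for S3, 3 are not in the table used here and were not analysed. The same holds for 4 of 10 listed for S1 and S2 and 3 of 25 listed for all segments. In this list library 1 alone was highest for 5 of the 6 detected genes, against 31.1% of the 12433 genes in the table whose mean value reached 30.

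Most markers of injured or regenerating tubule were high. All 12 listed genes were detected, against 82.1% of all protein-coding genes. Their median was 229 per exonic kilobase, and 9 of them lay above the median of detected genes. Spp1 was at 999, 999, 1005 and 996 and Clu at 1798, 1782, 1754 and 1792. Lcn2, the neutrophil gelatinase-associated lipocalin that serves as a urinary injury marker, was at 951, 928, 927 and 924, or 356 per exonic kilobase. These genes hardly differed between libraries. Sox9, a transcription factor of repairing tubule, was at 306 per exonic kilobase and the stem and progenitor surface protein Prom1 at 336. Markers of proximal injury were lower: Havcr1 (KIM-1) was at 37, 71, 48 and 39, or 21.1 per exonic kilobase, and the adhesion molecule Vcam1 at 666, 630, 606 and 567, or 69.6. The protease inhibitor Timp1 (49.3) and the keratin Krt20 (17.4) also lay low in the list. Uninjured kidney was not measured in this series, so the part of injury, culture or segment identity in these levels was not tested. Of 6 nephron progenitor genes only Sall1 (184) and the Wnt-responsive receptor Lgr5 (50.4) were detected, both also made outside progenitors. Six2, which maintains the progenitor pool, was at 1, 6, 0 and 6.

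**Figure D2:**
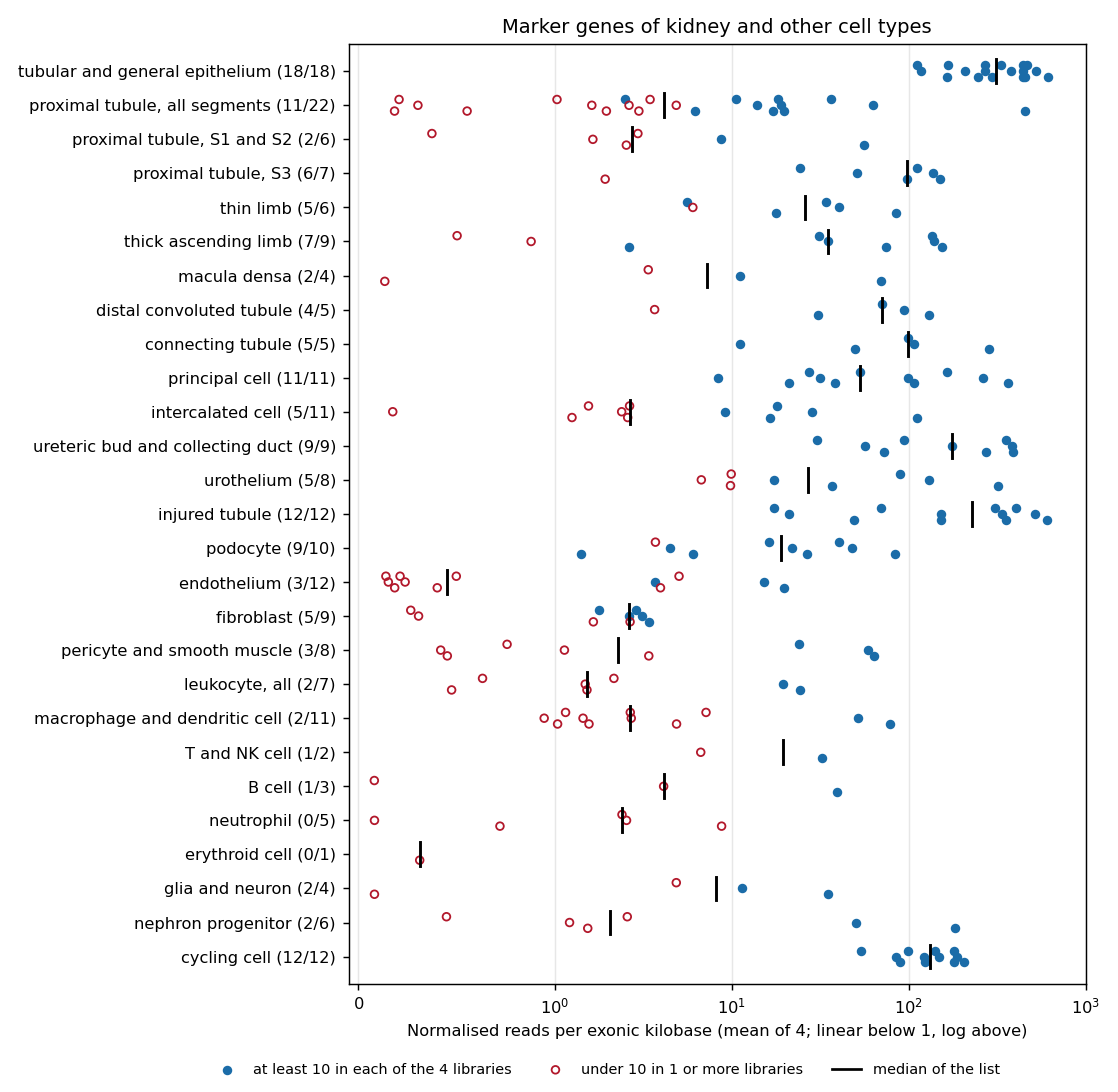
Level of each marker gene in the table (mean of 4 vehicle libraries, normalised reads per exonic kilobase; axis linear below 1 and logarithmic above), by list; filled points were at least 10 in each library, open points were under 10 in 1 or more, bars are list medians, and the fraction gives detected genes over genes in the table. The medians run from 313 for general epithelium, 229 for injured tubule and 175 for ureteric bud and collecting duct down to 4.15 for proximal tubule, 0.450 for endothelium and 0.312 for the single erythroid gene.

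Basal and urothelial markers were also found. The basal keratin Krt5 was at 470, 716, 780 and 842, or 320 per exonic kilobase, and Trp63, the master regulator of stratified epithelium, at 1164, 1033, 1085 and 1079, or 130. Library 1 was lowest for Krt5 and highest for Trp63. The uroplakin Upk1b was at 29, 80, 91 and 107 and Upk1a at 141, 134, 124 and 111, again in opposite order, while Upk2 and Upk3a were borderline. Ductal and stratified keratins Krt19, Krt23, Krt4 and Krt14 were at 441, 361, 347 and 113 per exonic kilobase. The keratin family as a whole (14 of 27 detected) summed to 5036, 6092, 6624 and 7043, and library 1 alone was lowest for 12 of the 14 detected members.

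Cell cycle genes were expressed throughout. All 12 cell cycle genes were detected, against 82.1% of all protein-coding genes, with a median of 132 per exonic kilobase. Mki67, which marks all cycling cells, was at 1675, 1871, 1715 and 1993, and the topoisomerase Top2a at 1527, 1644, 1617 and 1752. Library 1 was lowest and library 4 highest for 12 of 12 genes. Over the 12433 genes whose mean value reached 30, library 1 alone was lowest in 28.9% and library 4 alone highest in 30.6%.

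Markers of other kidney cells ranged from present to nearly none. For podocytes 9 of 10 genes were detected, against 82.1% of all protein-coding genes. The list median of 19.1 per exonic kilobase lay below the median of all genes. The sialomucin Podxl, which other epithelia also make, was at 83.9. Nephrin Nphs1, confined to podocytes in the kidney, was at 9, 33, 21 and 35, lowest in library 1. For endothelium 3 of 12 genes were detected (5 when library 2 was left out) and the median was 0.450; Pecam1 was at 3, 4, 1 and 2, Cdh5 at 0, 0, 1 and 3 and Kdr at 5, 4, 5 and 4. For fibroblasts 5 of 9 genes were detected but none exceeded 3.41 per exonic kilobase, and Col1a1, the main collagen of stroma, was at 1, 2, 3 and 1. The summed fibroblast list was 103, 115, 179 and 157. Of 8 pericyte and smooth muscle genes 3 were detected, Notch3 (63.3), Rgs5 (58.8) and Acta2 (24.1), whereas Myh11 was at 5, 6, 6 and 6.

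Few leukocyte markers were detected. In the general leukocyte list 2 of 7 genes were, with a median of 1.52 per exonic kilobase. Ptprc (CD45), the surface phosphatase of all leukocytes, was at 484, 468, 435 and 401, or 24.4 per exonic kilobase, and the integrin chain Itgb2 was at 32, 62, 69 and 74, or 19.4. In the same list Spi1 was at 7, 4, 3 and 2, Vav1 at 3, 2, 0 and 2 and Cd52 at 1, 2, 0 and 0. The sum of the general leukocyte list was 491 to 556 in the 4 libraries, most of it Ptprc. Of 11 macrophage and dendritic cell genes only Cd68 and Lyz2 were detected. Lyz2 was at 97, 81, 28 and 65, lowest in library 3, and the complement genes C1qa, C1qb and C1qc did not exceed 4 in any library. The summed macrophage list was 223, 259, 143 and 256, and library 3 alone was lowest for 9 of the 11 genes, most of them at low values, against 18.1% of the 9358 genes with a mean of 1 to 100. The lymphocyte kinase Lck was at 98, 96, 90 and 96 and the B cell receptor chain Cd79b at 64, 48, 62 and 51, beside Cd79a at 5, 7, 5 and 7. No neutrophil gene of 5 was detected; S100a8 was at 0, 1, 1 and 0 and S100a9 at 2, 1, 1 and 1. Cd3e, the haemoglobin genes, and the mast cell and adipocyte genes listed are not in the table used here and were not analysed.

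Glucocorticoids act through the receptor Nr3c1, which waits in the cytoplasm in a complex with Hsp90 chaperones; cortisol or corticosterone can also occupy the mineralocorticoid receptor Nr3c2 unless the enzyme Hsd11b2 inactivates it. Nr3c1 was at 398, 397, 369 and 388, or 50.5 per exonic kilobase, below the median of detected genes. Nr3c2 was at 178, 247, 169 and 177, or 29.8 per exonic kilobase; library 2 stood above the other 3, which were nearly equal. Hsd11b2 was at 211, 198, 190 and 127, lowest in library 4. The activating enzyme Hsd11b1 was at 10, 11, 25 and 11, or 3.35 per exonic kilobase against 98.6 for Hsd11b2, while H6pd, which supplies the cofactor for Hsd11b1, was at 232. All 13 chaperones were detected, against 82.1% of all protein-coding genes, with a median of 147. Fkbp4, which promotes receptor transport to the nucleus, was at 452, and Fkbp5, which restrains the receptor and is itself induced by it, at 24. All 11 coregulators were detected too, against the same 82.1%, led by Smarca4 at 253.

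Of 18 glucocorticoid target genes measured, 16 (88.9%) were detected, near the 82.1% of all protein-coding genes. These cultures had no dexamethasone, and whether the medium held another glucocorticoid is not given in the sources used here. Metallothionein Mt2 was at 323 per exonic kilobase, the EGF receptor inhibitor Errfi1 at 261 and the mTOR inhibitor Ddit4 at 247. Fkbp5 was at 202, 227, 229 and 251 and Tsc22d3 (GILZ), an anti-inflammatory leucine zipper protein, at 231, 220, 191 and 179. The libraries stood in opposite order for these 2 genes. The kinase Sgk1, which activates sodium channels, was at 36, 64, 85 and 66, lowest in library 1. Zbtb16 was at 1, 0, 0 and 0 and Pdk4 was borderline at 16, 17, 20 and 6. Among other steroid receptors Vdr was at 72.6, the progesterone receptor Pgr at 50.9 and the oestrogen receptor Esr1 at 30.3 per exonic kilobase, whereas Esr2 was at 4, 2, 4 and 4. The drug exporter Abcb1b, which pumps steroids out of cells, was at 53, 98, 147 and 195, spread over a wider range than the receptors.

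**Figure D3:**
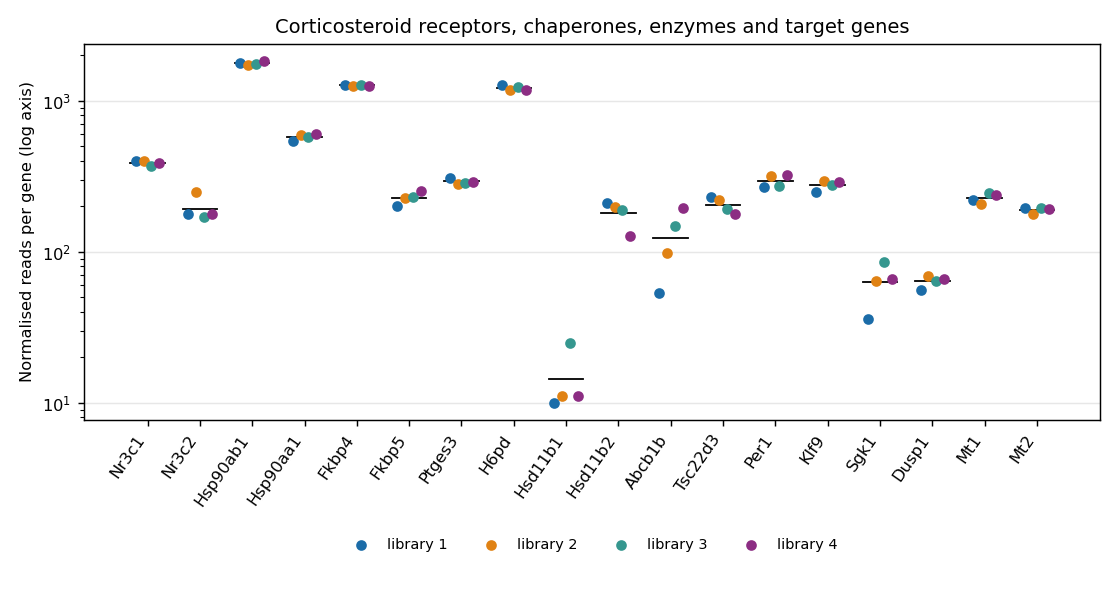
Normalised reads per gene (log axis) for corticosteroid receptors, chaperones, metabolic enzymes, an exporter and target genes in each of the 4 vehicle libraries; points are libraries and bars are means. Nr3c1 ranges only from 369 to 398, while Abcb1b ranges from 53 to 195 and Hsd11b1 lies near 10 in 3 libraries.

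Of 39 listed receptors for inflammatory cytokines and death ligands, 33 (84.6%) were detected, near the 82.1% of all protein-coding genes, with a median of 71.0 per exonic kilobase. The TNF receptors Tnfrsf1a and Tnfrsf1b were at 262 and 259, the lymphotoxin receptor Ltbr at 216, the interferon receptor chain Ifngr1 at 203 and the shared interleukin-6 family subunit Il6st at 213. The ligand-specific partner Il6ra was at 77, 67, 75 and 78, or 8.59 per exonic kilobase, while the oncostatin partner Osmr was at 112. Receptors of interleukin-17 were uneven: Il17rb at 224, Il17re at 150 and Il17rc at 126 against 17.8 for the common chain Il17ra. Il2rg, Il1r2, Il20ra and Csf2rb were not detected. Among pattern recognition receptors 12 of 15 were detected, with the lipopolysaccharide coreceptor Cd14 at 203, the double-stranded RNA sensor Tlr3 at 135 and Ddx58 (RIG-I) at 134; Tlr4 was at 46.6 and Tlr7 was at 1, 2, 3 and 2.

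Of 25 cytokine genes 17 (68.0%) were detected, against 82.1% of all protein-coding genes. The alarmin Il33 led at 564, 672, 715 and 808 (239 per exonic kilobase), lowest in library 1 and highest in library 4. Mif was at 228, Lif at 129, the lymphotoxin chain Ltb at 128 and the macrophage growth factor Csf1 at 103. Tnf, a cytokine better known from macrophages, was at 182, 187, 177 and 177 (110 per exonic kilobase), among the steadiest genes of the list. The granulocyte growth factor Csf3 was at 123, 151, 151 and 177, and Il1a at 72, 74, 83 and 157. Il6 was at 0, 0, 2 and 0 and Il10 was 0 in all 4 libraries, which at this depth means not detectable and not absence. Il1b is not in the table used here. Of 22 chemokines 17 (77.3%) were detected. Leading members were Cxcl14 at 773, 673, 748 and 707 and the neutrophil attractant Cxcl5 at 546, 568, 524 and 585. The scavenger-receptor ligand Cxcl16, also among them, was at 412, 427, 442 and 439. Ccl2, which attracts monocytes, was at 51, 54, 38 and 36. Of 5 chemokine receptors 3 (60.0%) were detected, with a median of 40.5 per exonic kilobase. Cxcr4 was highest at 143, and Cxcr2 and Cxcr5 were near 0.

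Growth factor signalling genes were detected at about the share of all protein-coding genes (82.1%) or below it. Of 28 receptor tyrosine kinases 24 (85.7%) were detected, with a median of 68.7. After Ret came Erbb2 at 221 per exonic kilobase, the ephrin receptor Epha2 at 188, the hepatocyte growth factor receptor Met at 181, the collagen receptor Ddr1 at 178 and Fgfr2 at 156. The epidermal growth factor receptor Egfr was at 310, 489, 492 and 588, or 41.5 per exonic kilobase, and Axl at 363, 522, 570 and 757; for both library 1 was lowest and library 4 highest. Of 38 growth factors 31 (81.6%) were detected with a median of 41.4, led by Bmp7 (303), which maintains kidney epithelium, Tgfb3 (287), Vegfa (191) and the stress-induced Gdf15 (188). Hgf and Igf1, typically made by stroma, were at 3, 2, 2 and 2 and at 5, 4, 6 and 3. Of 39 G protein-coupled receptors measured, 26 (66.7%) were detected with a median of 15.02, below the median of all genes, with the protease-activated receptor F2rl1 (267), the adenosine receptor Adora1 (255), Gprc5a (230) and Gprc5c (216) at the top. Basement membrane genes were all detected (18 of 18, median 191), including Lama5 (400), Hspg2 (325), Agrn (323) and Lamc1 (286).

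Transport genes were unevenly represented. Of 301 solute carriers 243 (80.7%) were detected, near the 82.1% of all protein-coding genes, with a median of 43.7 per exonic kilobase. They were led by the mitochondrial carrier Slc25a48 (311), the fatty acid transporter Slc27a6 (308) and the adenine nucleotide carrier Slc25a5 (279). The beta subunit of the sodium pump Atp1b1 was at 1244, 1220, 1216 and 1216, whereas the segment-specific pump regulator Fxyd2 was at 33, 37, 39 and 31. The salt carrier Slc12a2 was at 173 per exonic kilobase. Among glucose carriers Slc2a1 led at 169, and Slc2a2, Slc5a2 and Slc5a10 were under 2. The amino acid exchangers Slc1a5 (244), Slc38a2 (182), Slc3a2 (161) and Slc7a5 (147) were high and the brush border carriers Slc6a19 (13, 21, 9 and 16 normalised reads) and Slc7a9 (3, 2, 1 and 5 normalised reads) low. The organic cation carrier Slc22a2 was not detected, while the exporters Abcc4 and Abcc3 were at 236 and 170. Of 9 aquaporins Aqp8 was highest, at 482, 454, 468 and 429 (290 per exonic kilobase), followed by Aqp5 at 440, 441, 384 and 400; the proximal water channel Aqp1 was at 9, 14, 16 and 12. The tight junction claudins Cldn4 (443), Cldn3 (411) and Cldn8 (362) led this family, of which 14 of 19 (73.7%) were detected. Of 57 potassium channel genes 27 (47.4%) were detected, with Kcnk1 (381) above all others.

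Genes for uptake and handling of haem and iron are given because other cultures of the series received myoglobin. Of 15 listed genes 14 (93.3%) were detected, against 82.1% of all protein-coding genes. Ceruloplasmin Cp, a ferroxidase, was at 289 per exonic kilobase, the haem transporter Slc48a1 at 245, haptoglobin Hp at 167 and the transferrin receptor Tfrc at 150. The inducible haem oxygenase Hmox1 was at 110, 113, 124 and 106 (64.7 per exonic kilobase) against 347, 351, 340 and 339 (155) for the constitutive Hmox2. Among protein uptake receptors the megalin chaperone Lrpap1 was at 176 and the adaptor Dab2 at 50.3, well above Lrp2 at 14.0 and Cubn at 0.184. Lrp1, a related receptor, was at 197, 384, 434 and 447, lowest in library 1.

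Both lists of developmental regulators lay above the median of detected genes. Of 32 Hox genes 29 (90.6%) were detected, against 82.1% of all protein-coding genes, with a median of 79.9 per exonic kilobase. Hoxb6 was at 885, 875, 912 and 874 (451), Hoxb8 at 1088, 1033, 1066 and 1014 (399), and Hoxd9 at 644, 601, 660 and 616 (295). Of 32 nephron transcription factors 29 (90.6%) were detected as well, with a median of 112. Pou3f3, a factor of the distal nephron, was at 1871, 1847, 1828 and 1773 and Tfap2b, of the distal tubule, at 638, 627, 606 and 551. Of 12 Wnt ligands 9 were detected, with Wnt4 (114), Wnt5a (99.2) and Wnt7b (72.8) highest per exonic kilobase.

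The 4 libraries were close to one another. The 12433 genes whose mean value reached 30 had a median coefficient of variation of 5.10% and a median standard deviation of 0.07 on the log2(value + 1) scale. In 5005 of these genes the highest library was under 1.1 times the lowest, and in 196 (1.58%) it was at least 2 times. The steadiest genes were Man1a2 at 1130, 1128, 1124 and 1129, Lamp1 at 1041, 1044, 1047 and 1044, Top1, Mfsd1 and Bcl7c. Libraries 1 and 4 were farthest apart, with 154 genes at least 2-fold apart, followed by libraries 1 and 3 with 91 and 1 and 2 with 43. The pairs among libraries 2, 3 and 4 were closer, with 12 genes for 2 and 3, 11 for 2 and 4 and 17 for 3 and 4. The first component of the log2 values around each gene's mean held 61.3% of the variance, with library 1 at −0.77, library 2 at 0.00, library 3 at 0.14 and library 4 at 0.62. Among sparsely read genes (under 0.03 per exonic base) each of the 6 pairs differed by 1.18 to 2.84 times the variance of independent reads. Each pair thus differed by more, on average, than independent reads would.

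**Figure D4:**
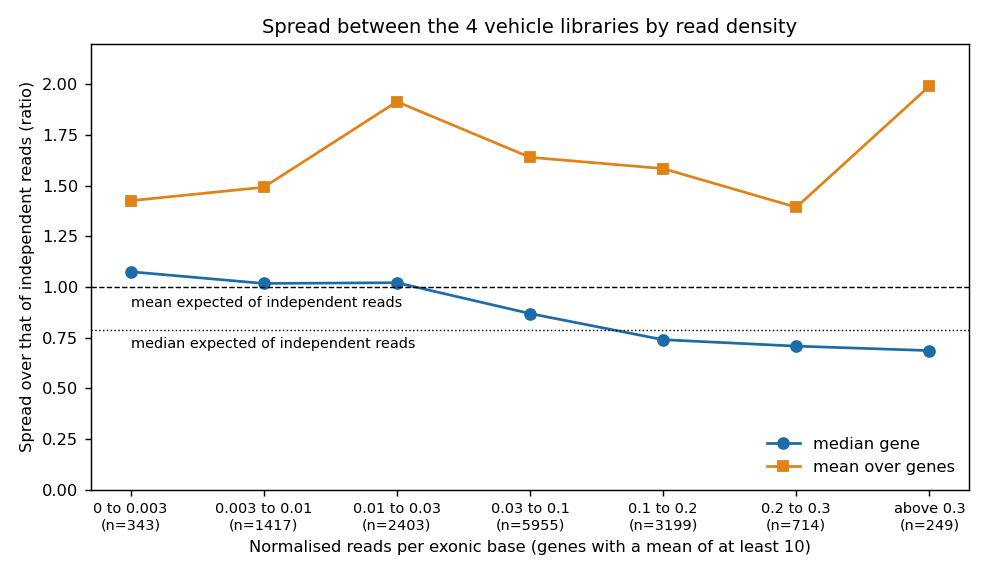
Variance between the 4 vehicle libraries divided by that of independent reads (linear axis), for 7 classes of normalised reads per exonic base, as the median gene and the mean over genes; dashed and dotted lines mark the mean and median that independent reads would give. The median falls from 1.08 in the sparsest class to 0.686 in the densest, under the 0.789 of independent reads, while the mean stays above 1.

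The densest genes varied less than independent reads would. The median ratio was 1.08 for genes under 0.003 reads per exonic base, 0.869 between 0.03 and 0.1 and 0.686 above 0.3, against 0.789 for independent reads. The mean ratio, which a few variable genes raise, was 1.99 in the densest class. Small standard deviations of genes such as Spp1 (3.77 around a value of 999.8) therefore belong to a density range in which the median gene varied less than independent reads would, and the cause was not tested. Library deviations also moved slightly with gene length: the median deviation of library 1 was −0.013 on the log2 scale in the shortest sixth of genes and 0.030 in the longest, and that of library 3 was 0.021 and −0.021.

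The most variable genes by the standard deviation of log2 values included Rims2, Cpne4, Mmp9, Ahnak2, Gna15, Cd177, Ern2, Slc16a3, Ccl6, Cd53 and Wnt10a. They were chosen for that spread, so their values are a description. Library 1 was lowest in Cpne4 (12, 38, 55 and 75), Gna15 (13, 43, 51 and 66), Cd177 (11, 41, 33 and 58), Ern2 (19, 57, 68 and 83), Cd53 (32, 85, 105 and 124) and the Wnt ligand Wnt10a (15, 42, 50 and 59). Not all followed that order: the synaptic protein Rims2 was high in libraries 2 and 3 (42, 170, 160 and 39), the lactate exporter Slc16a3 was highest in library 3 (58, 119, 202 and 56), and the gelatinase Mmp9 (41, 58, 11 and 61) and the chemokine Ccl6 (50, 58, 15 and 49) were lowest in library 3. Lyz2 and the macrophage list sum, given above, were also lowest in library 3. Among the 100 most variable genes library 1 alone was lowest in 83 and library 4 alone highest in 75, against 28.9% and 30.6% of all 12433 genes.

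**Figure D5:**
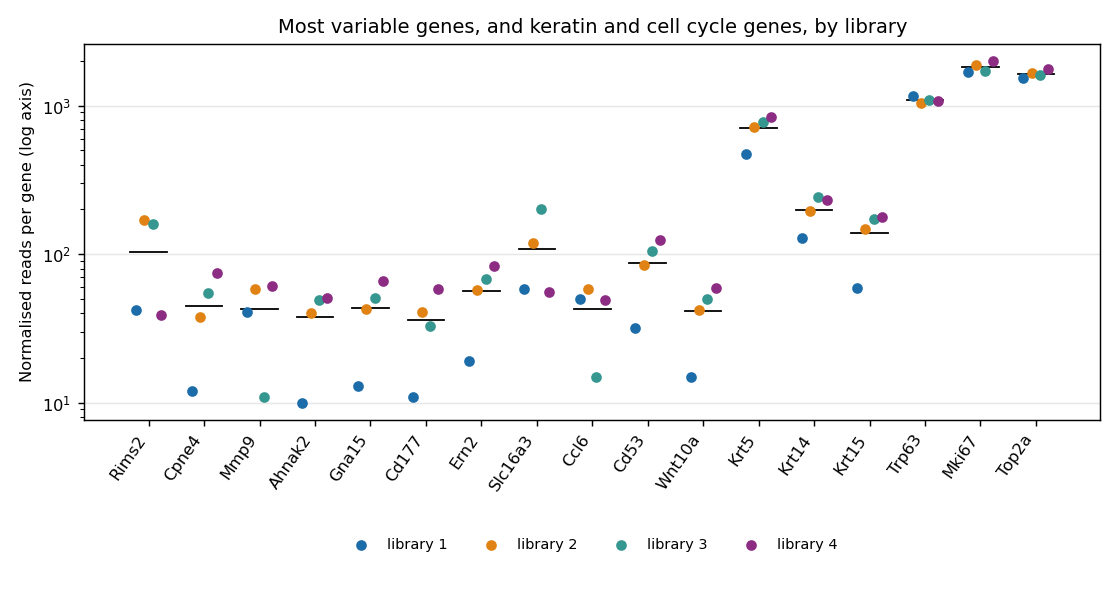
Normalised reads per gene (log axis) in each vehicle library for 11 of the 12 most variable genes, 4 genes of basal epithelium and 2 of the cell cycle; points are libraries and bars are means. Library 1 lies lowest for Cpne4, Gna15, Ern2, Cd53, Krt5, Krt14 and Krt15 but not for Trp63, and Mmp9 and Ccl6 are lowest in library 3.

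Several marker lists moved with that order. Keratins and cell cycle genes were lowest in library 1. The distal convoluted tubule list summed to 2874, 2693, 2664 and 2338 and the connecting tubule list to 2782, 2458, 2516 and 2272. Both sums were highest in library 1 and lowest in library 4. Library 4 alone was lowest in 4 of 5 detected connecting tubule genes. For the distal convoluted tubule it was alone lowest only for Slc12a3, 1 of 4 detected genes, although library 1 alone was highest in all 4. For principal cells library 4 alone was lowest in 7 of 11 genes, and for Hox genes in 16 of 29 detected, against 27.1% of the same 12433 genes. The list of general epithelium was nearly constant, at 19924, 19921, 20151 and 20272. The part of cell composition or of library preparation in this order was not tested.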

How the data were processed

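Stranded mRNA-seq libraries were made by the submitters from total RNA of the tubuloids, per the labels' protocols. The deposited table gives, per gene and library, a whole-number score that the values show to be reads divided by a library size factor and rounded, by the authors, with no length correction. Trimmomatic 0.39, STAR 2.7.10a, Picard 2.27.4, featureCounts 2.0.3, DESeq2 1.36.0 and build mm10 are named without roles, per the submitters' processing notes. Size factors (1.04 to 1.11) were read back from skipped and doubled low values, which recovered all 4 divisors when tested on simulated data of 20819 genes. Exonic lengths came from GENCODE M21 (98.9% of genes had identical coordinates; 28 had no length), promoter windows from RefSeq. All results are descriptions of 4 libraries, so no test was run. Levels are means ± SD.

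Genes were named by a fixed rule: a preset list, the 15 highest per exonic kilobase, up to 4 highest and 4 lowest members of each of 29 cell type and 24 function lists, the 3 highest of each of 20 families, and the 12 most and 5 least variable genes with a mean of at least 30. Some genes that the rule names are not reported here. Of 264 genes named, 45 lie outside it and were chosen after their values were seen. Members and lists were chosen with earlier results of these data known. Of 641 listed genes 572 are in the table. Alternatives were a minimum of 5 or 30, a minimum per length, other filters, pseudocounts, scalings and gene lengths, and leaving out each library. Python 3.11.15, pandas 2.3.3, numpy 2.4.6, scipy 1.17.1 and matplotlib 3.10.9 were used.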

Additional observations from a re-analysis of the deposited data

Results flagged for a closer look

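Among 295 named genes and list sums with a mean of at least 10, 17 had 1 library far from the other 3, by a gap beyond Dixon's critical value for 4 libraries. Chance puts about 1 in 20 groups there, which is about the share seen. Library 4 was far below the others for the salt carrier Slc12a3, at 767, and for the vasopressin receptor Avpr2, at 58, and far above them for Il1a, at 157, and for the summed chemokines, at 3825. Library 1 was far above the others for Trpm6, at 1075, Wnt5a, at 884, Lcn2, at 951, Atp1b1, at 1244, the summed cytokine and death receptors, at 19031, and the summed sodium pump and basolateral exit genes, at 6988, although the last 4 differed by only a few percent. Library 1 was far below for the summed neutrophil genes, at 7, a level too low to read. Library 2 was far above for the mineralocorticoid receptor Nr3c2, at 247, and far below for the summed receptor tyrosine kinases, at 16725. Library 3 was far above for Hsd11b1, at 25, and for the glycolytic aldolase Aldoa, at 982. Library 1 was also far below for the polarity gene Crb3, at 254, and far above for Fbp1, at 21.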

How the results depend on the processing

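Counts of detected genes stayed within 1.5 times of 13731 under each alternative tried: 12123 with a minimum of 30, 15042 with a minimum of 5, 16276 with a minimum share of the length-corrected library total in place of a minimum value, and 13821 to 13860 with 1 library left out. The share of the 100 most abundant genes was 3.86% when ranked and summed per exonic kilobase in place of 4.57%, and 4.53% to 4.59% with 1 library left out. The median spread, 0.073 on the log2 scale, was 0.145 with no filter on low values and 0.064 for genes with a mean of at least 100. Leaving out 1 library gave 0.063 to 0.075: it fell to 0.063 without library 1 and 0.065 without library 4. Other pseudocounts and scalings moved the median spread by less than the spread over left-out libraries. The counts of several short lists depend on the minimum: with a minimum of 30, fibroblast genes went from 5 to 0 detected and urothelial genes from 5 to 3. No paired analysis was possible because a single group was described. Depth limits low genes: near a value of 10 a difference of a few reads decides detection. Whether high densities are compressed by removal of duplicate reads was not tested.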

Other observations

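Of 18 genes of glycolysis and gluconeogenesis 16 (88.9%) were detected, near the 82.1% of all protein-coding genes, with a median of 100.04 normalised reads per exonic kilobase. Ldhb, at 425, and Aldoa, at 321, led the list, and hexokinase Hk2, which commits glucose to glycolysis, was at 1958, 1780, 1888 and 1874 (314). The glycolytic genes Gapdh and Eno1 were lower, at 88.8 and 78.6. The gluconeogenic enzymes Fbp1 and Pck1, characteristic of the proximal tubule, were at 10.6 and 2.62, and G6pc was at 1, 0, 0 and 1. Pck2, the mitochondrial form, was at 88.5 and pyruvate carboxylase Pcx at 126, so the gluconeogenic genes were not uniformly low.

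Genes of the primary cilium and of cell polarity were all detected, 11 of 11, against 82.1% of all protein-coding genes. Their median was 86.1 per exonic kilobase. The membrane linker ezrin, Ezr, was at 461, the polarity protein Crb3 at 175, polycystin Pkd2 at 100.2 and fibrocystin Pkhd1, mutated in recessive polycystic kidney disease, at 1329, 1257, 1189 and 1153. The multiciliogenesis factor Foxj1 was at 306, 301, 363 and 350.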
